A study of Mus musculus with 9 samples.

Results

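The glycolysis and hypoxia metabolism module is a set of 30 mouse genes, which encode the enzymes that turn glucose into pyruvate and lactate, the carriers that move glucose and lactate across the cell membrane, and factors and targets of the hypoxia response. Its members were taken by gene symbol and make up 30 of the 31017 gene symbols in the deposited feature lists. Aldoa is listed under 2 identifiers, so that 31 of 31053 feature rows carry a member symbol, and the second Aldoa row (ENSMUSG00000114515) held 0 unique molecular identifiers (UMIs), the tags that mark single captured RNA molecules. The other 30 rows held between 620 UMIs (Eno2) and 214863 UMIs (Gapdh) over all kept cells.

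The study profiled single CD11b+ cells from the lamina propria of male C57BL/6 mice aged 7 to 8 weeks by 10x Genomics 3' sequencing. Of the 9 libraries, 2 came from the colon of wild-type mice kept specific pathogen free (SPF), 1 from the colon of wild-type SPF mice given 2.5% (wt/vol) dextran sodium sulfate (DSS), a chemical that injures the colonic epithelium, for 7 days with plain water afterwards, and 1 from DSS-treated mice labelled Nlrc4 deficient. A further 2 came from the colon of wild-type germ-free mice, 1 from the colon of wild-type SPF mice that drank ampicillin, vancomycin, neomycin and metronidazole for 1 week or, by the labels, at times longer, and 2 from the small intestine of wild-type mice labelled only as normal. The number of mice behind a library, and whether replicate libraries came from separate mice, are not stated, so p-values measure only the spread between these libraries, which may be technical.

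Cells take up glucose through carriers of the Slc2a family, and hexokinases trap it as glucose 6-phosphate. Phosphofructokinase commits it to glycolysis, under the control of the Pfkfb enzymes, and Ldha turns the resulting pyruvate into lactate, which leaves the cell through the Slc16a carriers. When oxygen is low, the transcription factor subunit Hif1a escapes degradation and raises many of these genes, and neutrophils and activated monocytes are known for drawing much of their ATP from this pathway.

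After removal of cells with over 15% mitochondrial UMIs or under 200 genes, 31759 of 37123 barcodes were kept, at medians of 3342 to 12322.5 UMIs per cell and totals of 13243317 to 64453601 UMIs per library before that filter. Cells were assigned to 16 classes by marker genes that included no member of the module, which placed 24588 cells and left 7171 (22.6%) unassigned. The markers reserved for checking scored highest in their own class for each of the 16, but only weakly in eosinophil-like cells, where the defining marker Epx had 0 UMIs. Lymphoid, epithelial and stromal classes were present despite the CD11b sort, and Itgam, which encodes CD11b, stood at 52.1 to 180 CPM (UMIs of a gene scaled to the same total in every library) in whole libraries. Nlrc4 was not low in the library labelled Nlrc4 deficient, where 19.9 CPM (1254 UMIs) was the highest level of the 9 libraries (2.42 to 16.5 CPM in the others). Whether the 3' tags lie outside the deleted part or the label is wrong was not tested, and the library is named by its label throughout. Libraries shared 145 cell barcodes, and Scrublet called 133 of the 31759 kept cells as doublets. No cell was removed on that call, so doublets may remain.

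Promoter windows of the members are shown first, because they hold the letters that the hypoxia-inducible factor is known to bind. The factor recognises ACGTG or GCGTG on either strand. In RefSeq windows of GRCm38.p6 that run from 250 bases before to 50 bases after a transcript start, 34 of 42 member windows held at least 1 of these motifs (81.0%), against 14380 of 32851 windows of all genes (43.8%). The member windows were also richer in the bases of the motif, with a median GC content of 61.8% and 20 CpG dinucleotides against 52.7% and 7 over all windows. No window was found for Slc2a3. The 5 windows below are those of genes on which the comparisons turn, each printed 5′ to 3′ on the strand of its gene with the motifs in capitals. A CACGTG counts as 2 motifs, because it reads the same on both strands.
Slc16a3 (chr11:120948817-120949116, plus strand): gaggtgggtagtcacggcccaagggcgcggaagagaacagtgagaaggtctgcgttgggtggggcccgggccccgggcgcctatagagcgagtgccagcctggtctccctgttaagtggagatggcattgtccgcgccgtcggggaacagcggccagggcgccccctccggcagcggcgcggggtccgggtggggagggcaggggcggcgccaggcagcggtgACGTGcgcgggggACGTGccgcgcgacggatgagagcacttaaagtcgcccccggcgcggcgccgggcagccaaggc
Slc2a1 (chr4:119108495-119108794, plus strand): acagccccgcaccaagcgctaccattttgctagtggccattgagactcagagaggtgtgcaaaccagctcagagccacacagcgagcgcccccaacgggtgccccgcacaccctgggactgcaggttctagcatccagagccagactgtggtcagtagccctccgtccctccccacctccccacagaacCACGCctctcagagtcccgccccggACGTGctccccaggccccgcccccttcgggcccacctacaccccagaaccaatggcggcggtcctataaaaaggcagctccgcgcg
Hk2 (chr6:82774405-82774704, minus strand): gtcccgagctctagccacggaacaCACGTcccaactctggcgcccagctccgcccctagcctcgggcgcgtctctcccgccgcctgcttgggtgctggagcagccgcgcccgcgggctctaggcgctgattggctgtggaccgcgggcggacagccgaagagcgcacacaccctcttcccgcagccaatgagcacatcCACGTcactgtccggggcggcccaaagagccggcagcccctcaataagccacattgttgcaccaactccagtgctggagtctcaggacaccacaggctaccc
Hk3 (chr13:55021336-55021635, minus strand): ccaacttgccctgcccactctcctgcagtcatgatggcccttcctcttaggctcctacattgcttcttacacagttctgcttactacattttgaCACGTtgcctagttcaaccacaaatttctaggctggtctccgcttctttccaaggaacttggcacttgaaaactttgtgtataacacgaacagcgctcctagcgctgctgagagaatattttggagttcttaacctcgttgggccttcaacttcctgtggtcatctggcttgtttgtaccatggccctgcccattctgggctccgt
Bnip3 (chr7:138909457-138909756, minus strand): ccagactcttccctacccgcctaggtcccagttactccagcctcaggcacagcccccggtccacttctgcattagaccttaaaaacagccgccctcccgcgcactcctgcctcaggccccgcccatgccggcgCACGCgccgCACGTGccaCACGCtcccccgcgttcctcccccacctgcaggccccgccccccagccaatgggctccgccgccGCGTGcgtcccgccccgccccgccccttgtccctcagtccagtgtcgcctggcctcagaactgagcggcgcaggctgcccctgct
Slc16a3 and Slc2a1 each hold 2 motifs within 61 bases before the start, at 27 and 14 bases before it in Slc16a3 and at 61 and 36 in Slc2a1. Hk2 also holds 2, at 226 and 52 bases before the start, whereas Hk3 holds 1 at 156 bases before it. Bnip3 holds 5, the farthest of them 117 bases before the start. A match is a sequence feature of the window, and whether the factor binds there was not measured.

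UMIs were summed over the cells of each class in each library with at least 20 such cells, and levels are given as CPM of those sums. Over the 14 classes with at least 5 libraries, the highest median level lay in epithelial cell-like cells for 7 members (Hk1, Hk2, Pfkl, Aldoa, Tpi1, Slc16a1, Pdk1) and in neutrophil-like cells for 5 (Hk3, Pfkfb4, Slc2a3, Slc2a6, Slc16a3). Fibroblast-like cells had the highest median for another 5 (Pfkm, Eno2, Ldhb, Bnip3, P4ha1), inflammatory monocyte-like cells for 3 (Pgk1, Slc2a1, Hif1a) and type 1 dendritic cell-like cells for 3 (Pfkp, Pgam1, Ldha). As a measure of RNA free in the droplets, median levels of members typical of myeloid cells in epithelial cell-like cells were 0.150 CPM for Hk3, 1.28 for Slc2a6, 1.71 for Slc2a3 and 2.60 for Slc16a3. The map of median levels shows these groupings.

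**Figure D1:**
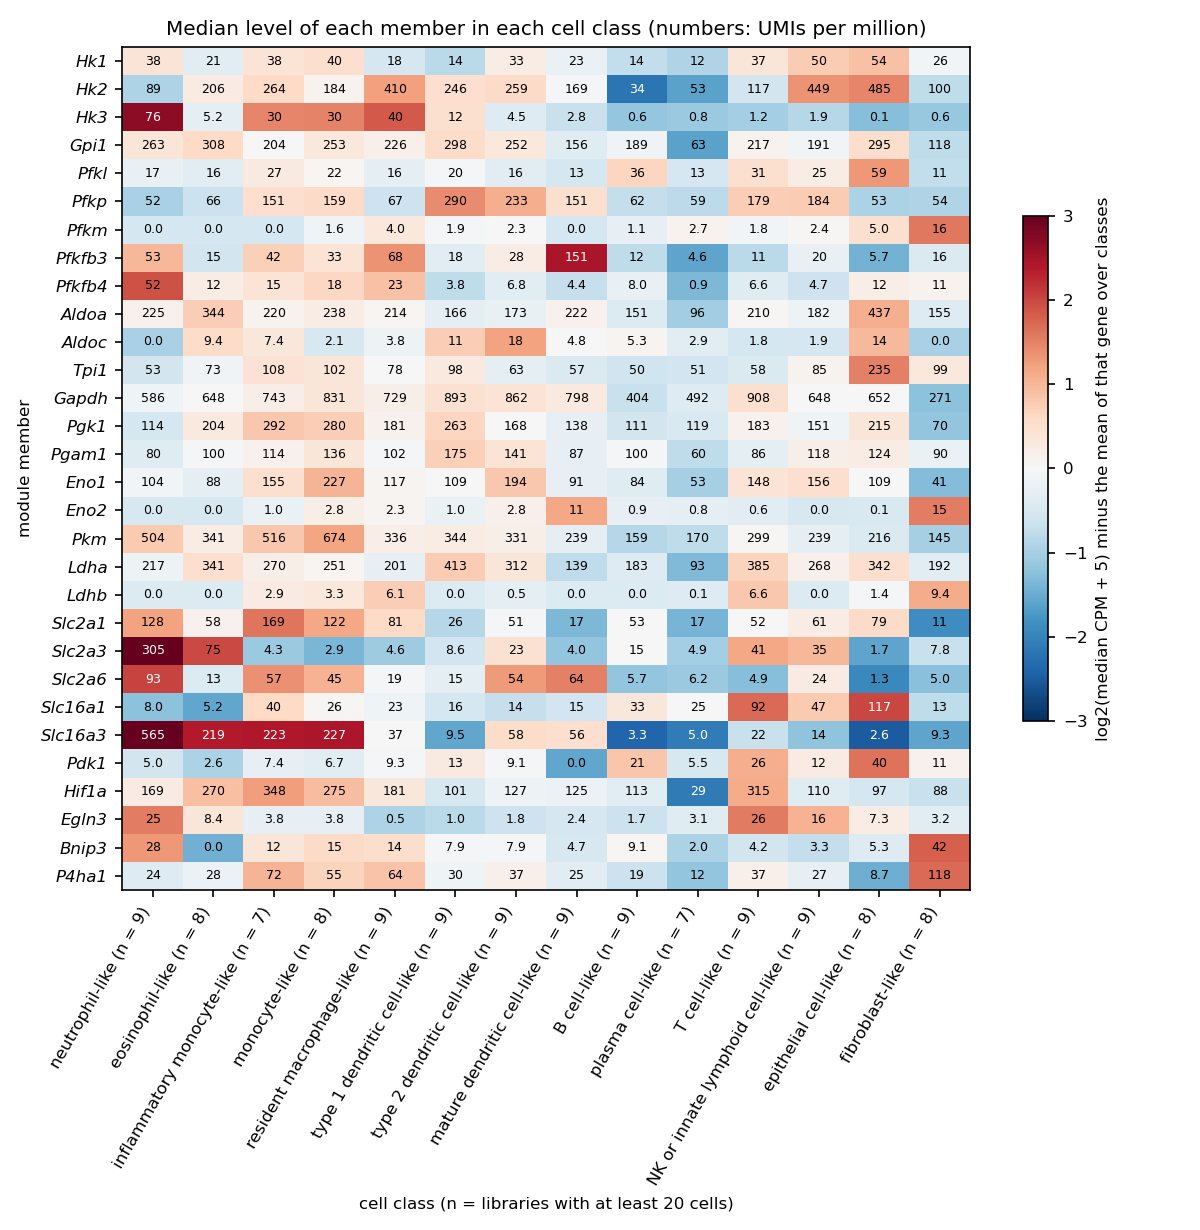
Median level of each member (rows, CPM, printed in the cells) over the libraries of each cell class (columns, with the number of libraries), coloured by log2(median CPM + 5) minus the mean of that gene over the classes. Slc2a3, Slc16a3 and Hk3 stand out in the neutrophil-like column, at 305, 565 and 75.7 CPM.

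Neighbouring myeloid classes were compared over the libraries that held both, with edgeR's quasi-likelihood test, the library as a block and Benjamini-Hochberg adjustment over all tested genes. The test scales each class by the TMM method, so that a fitted fold change can differ from the ratio of the levels printed here, most of all for neutrophil-like cells. Between neutrophil-like and monocyte-like cells, 13 of 25 tested members passed an adjusted p of 0.05, 8 of them higher and 5 lower in neutrophil-like cells, a share near that of all genes (53.0%, with 26.3% higher and 26.7% lower). Between dendritic cell-like and monocyte-like cells, 22 of 30 passed (6 higher and 16 lower in dendritic cell-like cells), where 51.3% of all genes passed (28.6% higher and 22.8% lower). Between monocyte-like and resident macrophage-like cells, 11 of 27 passed (9 higher and 2 lower in monocyte-like cells), against 29.4% of all genes (14.3% higher and 15.1% lower). Between inflammatory monocyte-like and monocyte-like cells, 3 of 23 passed, all higher in the inflammatory class, a share near the 15.1% of all genes (8.64% higher and 6.45% lower). Between eosinophil-like and neutrophil-like cells, 8 of 20 passed, all lower in eosinophil-like cells, where 35.9% of all genes passed (15.7% higher and 20.2% lower). DESeq2 called 14, 20, 11, 2 and 8 members in the same order of comparisons, and 3383, 5398, 2612, 820 and 1415 of all genes. The remaining members were below the filter on low counts and were not tested. The median log2 fold change of the tested members was 0.13 between neutrophil-like and monocyte-like cells (-0.10 over all genes), -0.38 for dendritic cell-like against monocyte-like cells (0.10), 0.29 for monocyte-like against resident macrophage-like cells (-0.03), 0.20 for inflammatory monocyte-like against monocyte-like cells (-0.0036) and -0.13 for eosinophil-like against neutrophil-like cells (0.13).

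**Figure D2:**
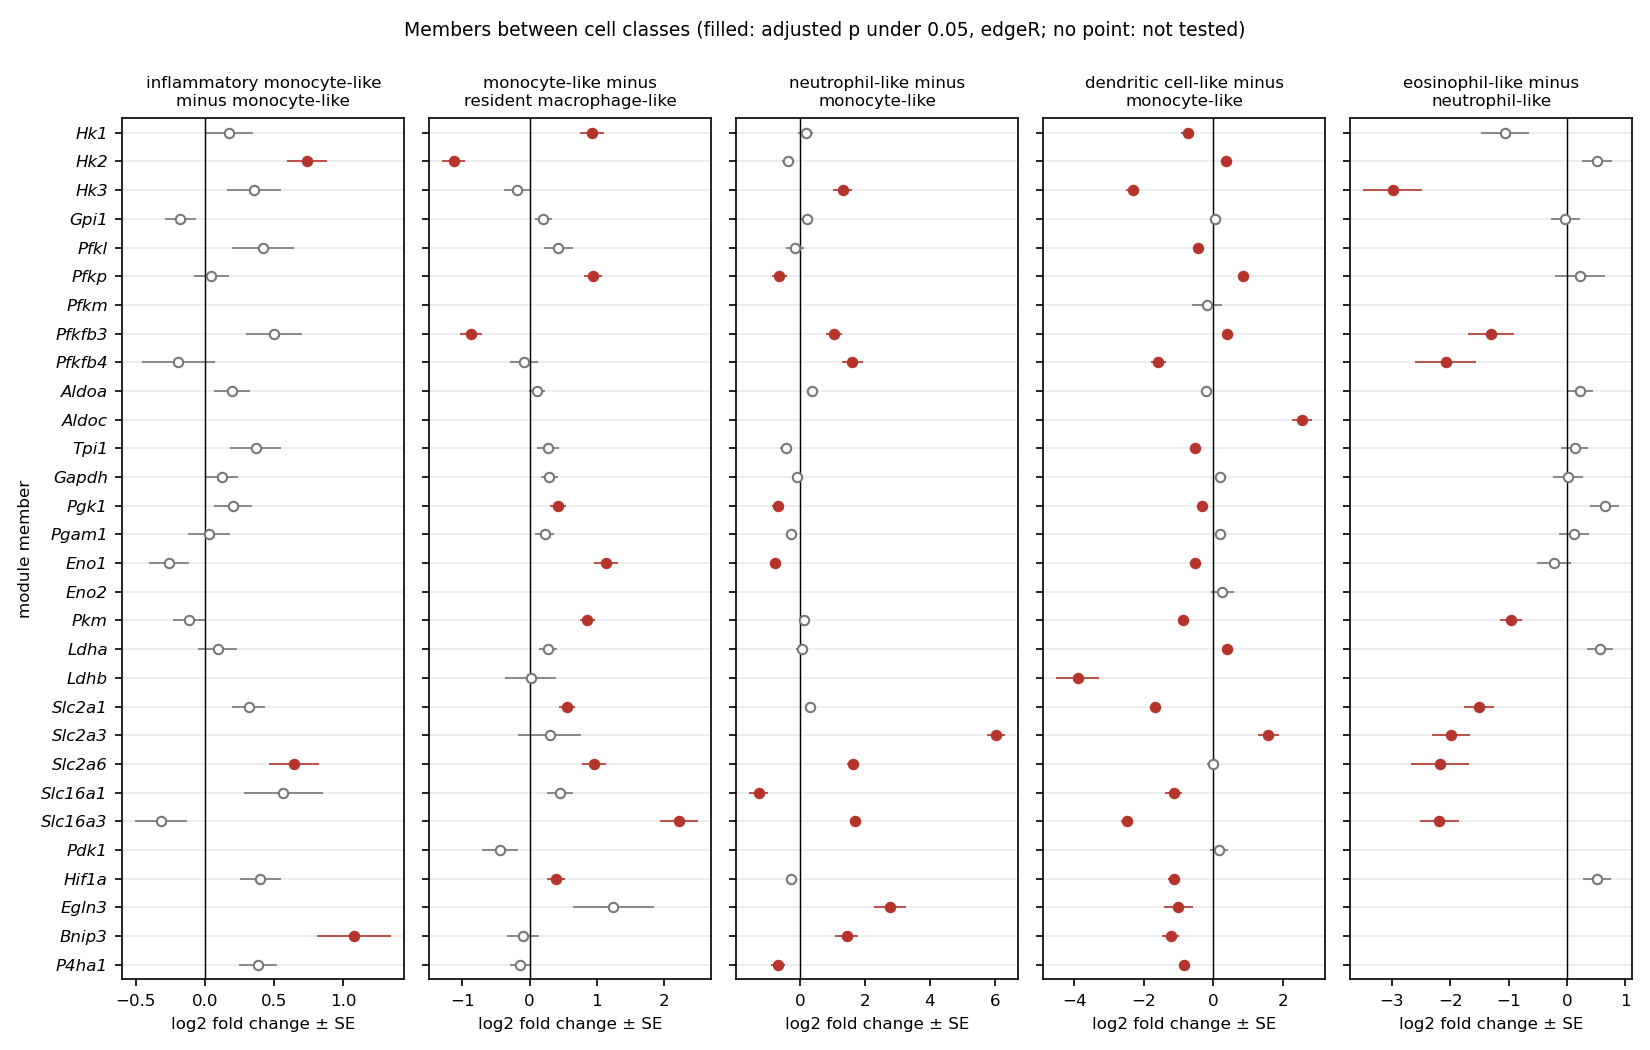
Log2 fold change ± SE of each tested member in 5 comparisons of cell classes (edgeR, 7 libraries in the comparison of inflammatory monocyte-like cells and 8 in the others), with filled points for an adjusted p under 0.05 and no point for members that were not tested. Horizontal scales differ between panels. Slc2a3 in neutrophil-like cells (6.03) and Ldhb in dendritic cell-like cells (-3.91) lie farthest from 0.

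Among the glucose carriers, Slc2a3 (ENSMUSG00000003153, chromosome 6 from 122727809 to 122801640 of GRCm38), the high-affinity carrier, had its highest median in neutrophil-like cells among the 14 classes. It ranged from 145 to 504 CPM in neutrophil-like cells (median 305, 9 libraries) and from 46.5 to 231 in eosinophil-like cells (median 74.7, 8 libraries), but its highest library stood at 10.5 among monocyte-like, 8.06 among resident macrophage-like and 32.0 among dendritic cell-like cells. Every neutrophil-like library lay above every monocyte-like library. The log2 fold change of neutrophil-like over monocyte-like cells was 6.03 ± 0.29 (SE, edgeR adjusted p = 2.82e-11, n = 8 libraries), and dendritic cell-like cells also exceeded monocyte-like cells by 1.59 ± 0.31 (adjusted p = 0.000285). Eosinophil-like cells were lower than neutrophil-like cells by 1.98 on the log2 scale (SE 0.32, adjusted p = 0.000263) in 8 of 8 libraries. Within neutrophil-like cells, the level was lowest in SPF colon 1, in the library labelled Nlrc4 deficient and in DSS colon (145, 160 and 185 CPM) and highest in the small intestine libraries (499.5 and 504).

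Slc2a1 (ENSMUSG00000028645, chromosome 4 from 119108711 to 119137983), which encodes the basal glucose carrier of most cells, was highest in inflammatory monocyte-like cells, at 101 to 211 CPM with a median of 169 over 7 libraries. It ranged from 101 to 147 CPM in neutrophil-like cells, from 91.4 to 186 in monocyte-like cells, from 62.2 to 123 in resident macrophage-like cells and from 29.7 to 54.6 in dendritic cell-like cells, so that dendritic cell-like and monocyte-like libraries did not overlap. Slc2a1 was lower in dendritic cell-like than in monocyte-like cells by a log2 fold of 1.68 (SE 0.14, adjusted p = 1.26e-08), higher in monocyte-like than in resident macrophage-like cells by 0.56 ± 0.12 (adjusted p = 0.00203), and lower in eosinophil-like than in neutrophil-like cells by 1.51 (SE 0.26, adjusted p = 0.00048). The difference between inflammatory monocyte-like and monocyte-like cells was 0.32 ± 0.12 and did not pass (adjusted p = 0.0921).

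Slc2a6 encodes a lysosomal hexose carrier that inflammatory stimuli induce in macrophages. It ranged from 58.7 to 165 CPM in neutrophil-like cells, from 21.3 to 59.3 in monocyte-like cells, from 33.6 to 112 in inflammatory monocyte-like cells and from 12.6 to 35.5 in resident macrophage-like cells. Neutrophil-like cells exceeded monocyte-like cells by 1.63 ± 0.18 on the log2 scale (adjusted p = 1e-06) and monocyte-like cells exceeded resident macrophage-like cells by 0.96 ± 0.17 (adjusted p = 0.000396), each in 8 of 8 libraries. Inflammatory monocyte-like cells were higher than monocyte-like cells in 7 of 7 libraries (0.65 ± 0.18, adjusted p = 0.0226), but this call was lost under 5 of 17 alternatives, among them the removal of SPF colon 2, DSS colon or antibiotics colon.

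The monocarboxylate carrier Slc16a3 (ENSMUSG00000025161, chromosome 11 from 120948480 to 120960868), which exports lactate from glycolytic cells, passed in 4 of the 5 class comparisons. Its level ranged from 369 to 1159 CPM in neutrophil-like cells (median 565), from 131 to 373 in monocyte-like cells (median 227), from 17.5 to 122 in resident macrophage-like cells (median 37.5) and from 17.9 to 55.1 in dendritic cell-like cells (median 45.5). All monocyte-like libraries lay above all resident macrophage-like and dendritic cell-like libraries. The log2 fold change was 1.68 ± 0.15 for neutrophil-like over monocyte-like cells (adjusted p = 8.15e-08), 2.23 ± 0.28 for monocyte-like over resident macrophage-like cells (adjusted p = 1.22e-05) and -2.48 ± 0.16 for dendritic cell-like against monocyte-like cells (adjusted p = 5.73e-10). Eosinophil-like cells held 31.0 to 306 CPM, all below the neutrophil-like libraries (log2 fold change -2.18 ± 0.34, adjusted p = 0.000181), with the small intestine libraries lowest at 34.8 and 31.0. These 4 calls held under every alternative run, including the removal of each library. Slc16a1, the related carrier that serves lactate uptake as well as release, had the opposite order between neutrophil-like cells (0 to 19.1 CPM) and monocyte-like cells (16.0 to 49.9), with a log2 fold change of -1.27 ± 0.29 (adjusted p = 0.00128).

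**Figure D3:**
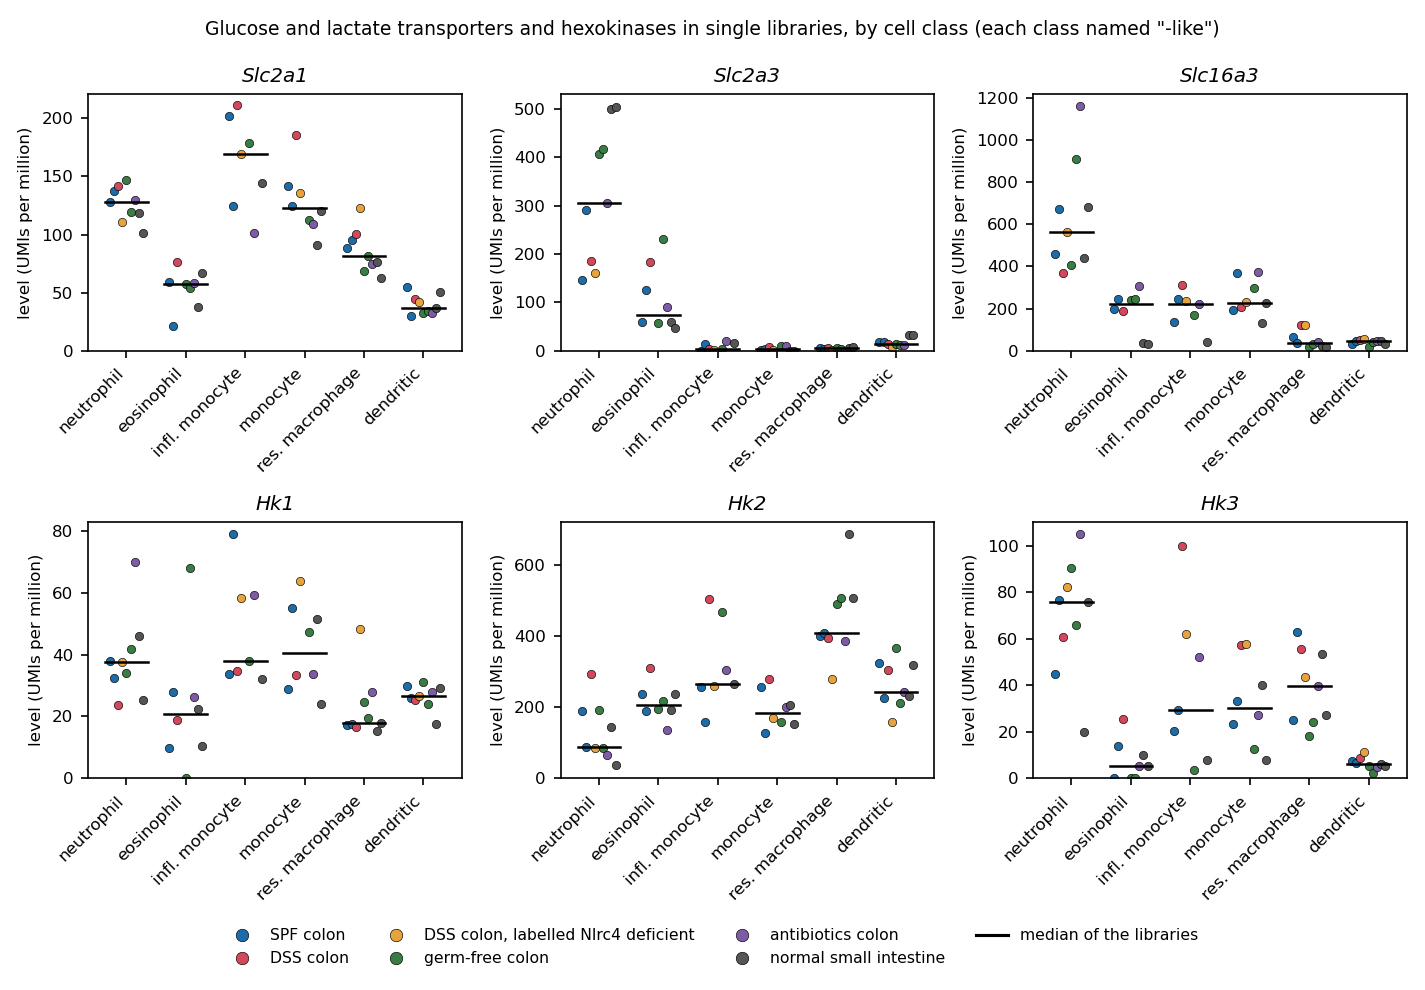
Level (CPM, linear scale) of 3 carriers and 3 hexokinases in single libraries, by cell class, with points coloured by group and a line at the median of the libraries. Slc2a3 is at most 32.0 CPM in the monocyte-like, resident macrophage-like and dendritic cell-like classes shown. Slc16a3 has its highest median in neutrophil-like cells and is lower in resident macrophage-like than in monocyte-like cells. Hk2 and Hk3 differ in order between the classes.

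The 3 hexokinases, which trap glucose in the cell, had different class orders. Hk2 (ENSMUSG00000000628, chromosome 6 from 82725025 to 82774454), the inducible form bound to mitochondria, ranged from 280 to 688 CPM in resident macrophage-like cells (median 410), from 126 to 280 in monocyte-like cells (median 184) and from 158 to 503 in inflammatory monocyte-like cells (median 264). Monocyte-like cells were lower than resident macrophage-like cells in 8 of 8 libraries, by a log2 fold of 1.13 (SE 0.17, adjusted p = 5.63e-05), and inflammatory monocyte-like cells were higher than monocyte-like cells in 6 of 7 (0.74 ± 0.14, adjusted p = 0.00159). The latter call was lost without the library block. Hk1, the housekeeping form, had the reverse order, at 24.1 to 63.8 CPM in monocyte-like and 15.4 to 48.2 in resident macrophage-like cells (log2 fold change 0.93 ± 0.18, adjusted p = 0.00063, higher in 8 of 8 libraries). Hk3 (ENSMUSG00000025877, chromosome 13 from 55005985 to 55021385), the form typical of granulocytes and monocytes, ranged from 19.7 to 105 CPM in neutrophil-like cells, from 8.02 to 57.8 in monocyte-like cells and from 18.4 to 62.9 in resident macrophage-like cells. It reached at most 25.3 in eosinophil-like and 11.5 in dendritic cell-like cells. Neutrophil-like cells exceeded monocyte-like cells by 1.31 ± 0.29 (adjusted p = 0.000948), whereas dendritic cell-like cells were lower than monocyte-like cells by 2.32 (SE 0.19, adjusted p = 7.06e-09) and eosinophil-like cells lower than neutrophil-like cells by 2.98 (SE 0.51, adjusted p = 0.000385), both in 8 of 8 libraries. Dendritic cell-like cells were higher than monocyte-like cells in Hk2 (0.38 ± 0.14, adjusted p = 0.028, lost under 4 of 18 alternatives, among them the removal of SPF colon 2, germ-free colon 2 or small intestine 2) and lower in Hk1 (-0.74 ± 0.19, adjusted p = 0.00304).

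At the phosphofructokinase step, Pfkp, which encodes the platelet-type subunit, ranged from 149 to 336 CPM in dendritic cell-like cells, from 68.5 to 201 in monocyte-like cells and from 48.3 to 111 in resident macrophage-like cells. It was higher in dendritic cell-like than in monocyte-like cells (log2 fold change 0.86 ± 0.11, adjusted p = 1.85e-06) and higher in monocyte-like than in resident macrophage-like cells (0.95 ± 0.13, adjusted p = 3.12e-05), each in 8 of 8 libraries. In neutrophil-like cells it was lower than in monocyte-like cells by 0.63 on the log2 scale (SE 0.23, adjusted p = 0.0301), a call lost under 4 of 18 alternatives, among them the removal of SPF colon 1 or antibiotics colon. The liver-type subunit gene Pfkl stood at 5.36 to 40.1 CPM in neutrophil-like, monocyte-like and resident macrophage-like libraries. Its only call, in dendritic cell-like against monocyte-like cells (-0.43 ± 0.16, adjusted p = 0.0321), was lost under 8 of 18 alternatives, among them the removal of SPF colon 2, DSS colon or germ-free colon 2. The muscle-type Pfkm never exceeded 8.39 CPM in any of the 6 myeloid classes.

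The Pfkfb enzymes set the level of the sugar phosphate that activates phosphofructokinase. Pfkfb3, the form with the strongest drive towards glycolysis, ranged from 0 to 99.9 CPM in neutrophil-like cells, where germ-free colon 1 had no UMI among 39 cells, from 22.4 to 52.4 in monocyte-like cells and from 37.6 to 166 in resident macrophage-like cells. Neutrophil-like cells exceeded monocyte-like cells by 1.05 ± 0.23 (adjusted p = 0.00113), and monocyte-like cells were lower than resident macrophage-like cells by 0.87 (SE 0.17, adjusted p = 0.000617) in 8 of 8 libraries. Mature dendritic cell-like cells had the highest median of any class, 151 CPM, with 125 to 216 over 9 libraries. Pfkfb4, its hypoxia-inducible relative, ranged from 12.1 to 72.6 CPM in neutrophil-like and from 0 to 28.7 in monocyte-like cells (log2 fold change 1.62 ± 0.32, adjusted p = 0.000436). Both fell short of the neutrophil-like level in eosinophil-like cells, by 1.30 (SE 0.40, adjusted p = 0.0194) for Pfkfb3, a call lost under 5 of 19 alternatives, among them the removal of SPF colon 1, SPF colon 2, germ-free colon 2 or antibiotics colon, and by 2.08 (SE 0.52, adjusted p = 0.00639) for Pfkfb4.

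In the lower part of glycolysis, Gapdh, which makes the bisphosphoglycerate of the pathway, ranged from 617 to 1185 CPM in monocyte-like cells and from 366 to 1252 in neutrophil-like cells, and passed in none of the 5 class comparisons (edgeR adjusted p between 0.0953 and 0.968). Eno1, the enolase of most cells, ranged from 189 to 330 CPM in monocyte-like cells, from 40.3 to 221 in resident macrophage-like cells and from 63.1 to 199 in neutrophil-like cells. It was higher in monocyte-like than in resident macrophage-like cells by 1.14 ± 0.18 (adjusted p = 8.71e-05), lower in neutrophil-like than in monocyte-like cells by 0.76 (SE 0.17, adjusted p = 0.0011) and lower in dendritic cell-like than in monocyte-like cells by 0.52 (SE 0.10, adjusted p = 0.000232), each in 8 of 8 libraries. The Eno1 call in neutrophil-like cells was lost without the library block, and that in dendritic cell-like cells with clusters in place of gates. Pkm, pyruvate kinase, stood at 441 to 988 CPM in monocyte-like, 218 to 750 in resident macrophage-like and 425 to 926 in neutrophil-like cells, and at 208 to 424 in eosinophil-like cells. Monocyte-like cells exceeded resident macrophage-like cells by 0.86 ± 0.11 (adjusted p = 1.43e-05), and eosinophil-like cells were lower than neutrophil-like cells by 0.96 (SE 0.19, adjusted p = 0.00138) with no overlap over the 8 shared libraries. Pgk1, phosphoglycerate kinase, was higher in monocyte-like than in resident macrophage-like cells (0.42 ± 0.11, adjusted p = 0.00889) and lower in neutrophil-like than in monocyte-like cells (-0.67 ± 0.19, adjusted p = 0.00594), both calls being lost without the library block. Aldoc, the brain-type aldolase, ranged from 4.56 to 31.7 CPM in dendritic cell-like, 0 to 5.08 in monocyte-like and 0 to 25.8 in eosinophil-like cells, and was higher in dendritic cell-like than in monocyte-like cells (log2 fold change 2.56 ± 0.29, adjusted p = 6.4e-07). Aldoa, Gpi1 and Pgam1 passed in none of the 5 comparisons, and Tpi1 only as lower in dendritic cell-like than in monocyte-like cells (-0.53 ± 0.13, adjusted p = 0.00224). With clusters in place of gates, Gapdh and Pgam1 were called lower in eosinophil-like than in neutrophil-like cells. Gapdh, Eno1, Pgam1, Tpi1 and Ldha have near-identical processed copies in the genome, with which reads may be shared, so their counts are less certain.

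Ldha, which reduces pyruvate to lactate, was similar in monocyte-like (171 to 369 CPM), neutrophil-like (131 to 339) and resident macrophage-like cells (145 to 279). It passed only as higher in dendritic cell-like cells (243 to 437 CPM, log2 fold change 0.40 ± 0.12 over monocyte-like cells, adjusted p = 0.00987), a call lost without the library block and with both DSS-treated libraries removed. Its relative Ldhb had at most 19.0 CPM in any myeloid class and was lower in dendritic cell-like than in monocyte-like cells (0 to 1.40 against 0 to 13.1 CPM, adjusted p = 5.35e-05), on few UMIs. Pdk1, which holds pyruvate out of the citrate cycle, stood at 4.93 to 14.5 CPM in dendritic cell-like and resident macrophage-like cells. It did not pass in any comparison in which it was tested.

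Hif1a (ENSMUSG00000021109), the oxygen-regulated subunit, was highest in inflammatory monocyte-like cells at 201 to 619 CPM (median 348). It ranged from 201 to 406 CPM in monocyte-like cells, 125 to 298 in resident macrophage-like cells and 79.6 to 180 in dendritic cell-like cells, the last without overlap with monocyte-like cells (log2 fold change -1.13 ± 0.18, adjusted p = 4.37e-05). Monocyte-like cells exceeded resident macrophage-like cells by 0.40 ± 0.13 (adjusted p = 0.0302), a call lost under 7 of 18 alternatives, including the removal of SPF colon 1, SPF colon 2, DSS colon, germ-free colon 2 or antibiotics colon. The hypoxia targets Egln3, a hydroxylase that marks Hif1a for degradation, and Bnip3, a mitophagy receptor, were higher in neutrophil-like than in monocyte-like cells, at 6.57 to 56.6 against 0 to 11.4 CPM for Egln3 (2.77 ± 0.48, adjusted p = 0.00012) and 11.3 to 43.2 against 2.49 to 39.5 for Bnip3 (1.44 ± 0.36, adjusted p = 0.00309). P4ha1, a collagen prolyl hydroxylase subunit, had the opposite order, at 6.57 to 48.4 CPM in neutrophil-like and 24.1 to 84.8 in monocyte-like cells (-0.68 ± 0.23, adjusted p = 0.0177, lost without SPF colon 2). In inflammatory monocyte-like cells Bnip3 ranged from 0 to 111 CPM, with the value of 111 in DSS colon and at most 26.9 elsewhere. Its call against monocyte-like cells (1.08 ± 0.27, adjusted p = 0.0101) was lost with DESeq2, with clusters in place of gates and without the library labelled Nlrc4 deficient.

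Pathways that adjoin the module were counted in the same comparisons, with the share of all genes called beside each count. Of 10 subunits of oxidative phosphorylation, 9 were lower and 0 higher in neutrophil-like than in monocyte-like cells. Among all genes 53.0% were called there, 26.7% lower and 26.3% higher. The largest change was that of Ndufb8 (-1.10 ± 0.22, edgeR adjusted p = 0.00035), a subunit of complex I. In dendritic cell-like cells, 7 of 10 were higher than in monocyte-like cells (51.3% of all genes called, 28.6% higher and 22.8% lower). Among 13 genes of pyruvate entry and the citrate cycle, 6 were higher and 0 lower in dendritic cell-like cells. The share called in either direction was near the 51.3% of all genes, which split into 28.6% higher and 22.8% lower. The largest change was that of Mdh2 (1.74 ± 0.16, edgeR adjusted p = 3.1e-08), malate dehydrogenase. In the pentose phosphate pathway, which branches from glucose 6-phosphate, 5 of 6 genes were higher in monocyte-like than in resident macrophage-like cells. Of all genes, 29.4% were called there and 14.3% were higher. In inflammatory monocyte-like cells, 3 of 6 were lower than in monocyte-like cells (15.1% of all genes called, 6.45% lower). G6pdx changed most in both comparisons (0.92 ± 0.20 and -0.82 ± 0.16). The 3 calls in inflammatory monocyte-like cells (G6pdx, Pgls, Taldo1) were all lost with clusters in place of gates, without the library block, and without DSS colon and the library labelled Nlrc4 deficient, and the G6pdx call in monocyte-like against resident macrophage-like cells was lost with clusters. Of 16 further targets of the hypoxia-inducible factor, 11 were tested in neutrophil-like against monocyte-like cells, with 6 higher (Vegfa by 1.78 ± 0.22) and 3 lower (53.0%), and 11 in inflammatory monocyte-like against monocyte-like cells, with 4 higher (Ddit4 by 1.13 ± 0.18) and none lower (15.1%). Of these 4, Ddit4 alone was still called without the library block. Against resident macrophage-like cells, 1 of 13 tested targets was higher and 1 lower in monocyte-like cells (29.4%). Dendritic cell-like cells had 2 of 13 higher and 6 lower than monocyte-like cells (51.3%). Eosinophil-like cells had 0 of 10 higher and 3 lower than neutrophil-like cells (35.9%). Of 6 genes of gluconeogenesis and glycogen, 4 were tested in neutrophil-like against monocyte-like cells and 1 was called, where 53.0% of all genes were. That gene, Pygl, glycogen phosphorylase, was higher in neutrophil-like cells (2.44 ± 0.16, edgeR adjusted p = 1.9e-09). All of these are edgeR calls at the same threshold.

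Other quantities moved with the classes, and their part in these differences was not tested. Of 12 genes that rise during tissue dissociation, 7 were higher and 2 lower in neutrophil-like than in monocyte-like cells (53.0% of all genes called), 1 higher and 5 lower in monocyte-like than in resident macrophage-like cells (29.4%) and 6 lower in inflammatory monocyte-like than in monocyte-like cells (15.1%). In the same list, 1 was higher and 6 lower in dendritic cell-like than in monocyte-like cells (51.3%), and 8 were lower in eosinophil-like than in neutrophil-like cells (35.9%). Median depth was 2534.5 UMIs per cell in neutrophil-like, 1208 in eosinophil-like, 8108.5 in monocyte-like and 4867 in resident macrophage-like cells. Only 56.6% of monocyte-like cells lay in clusters of that name. For eosinophil-like cells, the mean depth was 7323 and 9218 UMIs per cell in the small intestine libraries and 1339 to 2015 elsewhere, and plasma cell markers reached 12027 and 22676 CPM in SPF colon 1 and germ-free colon 1. Without the small intestine libraries 8 members were called, and without the 2 libraries rich in plasma cell markers also 8, all lower in eosinophil-like cells. Neutrophil markers summed to 1445 to 9737 CPM in eosinophil-like cells and 28458 to 133427 in neutrophil-like cells. Scaling mattered for the neutrophil-like comparisons. With library totals in place of TMM, the median of all genes against monocyte-like cells moved from -0.10 to -0.48. The members split into 8 higher and 10 lower there, and all genes into 1161 higher and 2775 lower (1673 and 1697 with TMM). For eosinophil-like against neutrophil-like cells, the median of all genes moved from 0.13 to 0.39. The members became 4 higher and 7 lower, and all genes 1080 higher and 627 lower (628 and 808 with TMM). No call named above turned its direction with either scaling.

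The summed level of the 30 members was higher in both DSS-treated libraries than in all others in 4 myeloid classes. In monocyte-like cells, it was 5245 CPM in DSS colon and 5188 CPM in the library labelled Nlrc4 deficient, against 3432 to 4409 CPM in the other 6 libraries. In resident macrophage-like cells, it was 4034 and 5080 CPM against 2617 to 3607 in the other 7, and in inflammatory monocyte-like cells 7150 and 6197 CPM against 3265 to 4124 in the other 5. Dendritic cell-like cells had 3951 and 4468 CPM against 3141 to 3784, while in neutrophil-like cells the 4337 CPM of DSS colon lay inside the range of the other 7 libraries (3340 to 4704) and the 5220 CPM of the library labelled Nlrc4 deficient above it. In eosinophil-like cells DSS colon, at 4325 CPM, also lay inside the range of the other 7 (2828 to 4351). The library labelled Nlrc4 deficient held only 7 such cells and gave no sum there. With 1 library of each kind, these differences have no replicate check and were not tested. Gapdh and Pkm together made up 21.9% to 42.6% of the sum.

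**Figure D4:**
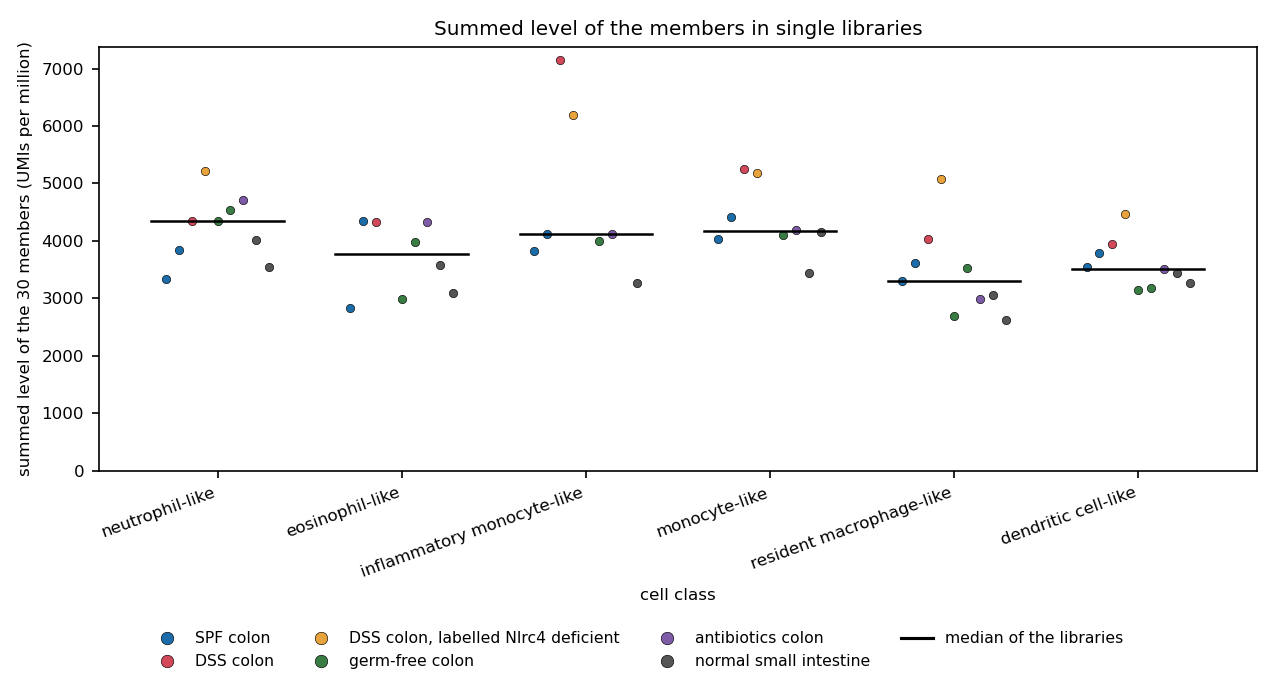
Summed level of the 30 members (CPM) in single libraries of 6 myeloid classes, with points coloured by group and a line at the median of the libraries. The DSS library and the library labelled Nlrc4 deficient lie above all others in inflammatory monocyte-like, monocyte-like, resident macrophage-like and dendritic cell-like cells.

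Compared with both SPF colon libraries, DSS colon was higher in 20 of 30 members and lower in 1 in monocyte-like cells, where 36.8% of all genes lay above and 25.2% below both. In resident macrophage-like cells it was higher in 18 of 29 members and lower in 5 (45.6% and 25.1% of all genes) and in dendritic cell-like cells in 12 and 8 of 29 (34.4% and 33.6%). Few members differed by more than a fold of 2 from each SPF library, on log2(CPM + 5) and with at least 10 UMIs. In monocyte-like cells 0 of 30 did (1.04% of all genes), in resident macrophage-like cells 1 of 29 (1.73%) and in dendritic cell-like cells 1 of 29 (1.28%). With SPF colon 1 left out, 3, 5 and 3 members passed the fold in these classes, and with SPF colon 2 left out 1, 2 and 1, while clusters in place of gates gave 2, 0 and 0. With 1 SPF library left out, every gene has to meet the fold against 1 library only. The share of all genes was not counted for these alternatives. Bnip3 in resident macrophage-like cells stood at 46.9 CPM in DSS colon (exact 95% Poisson interval 36.6 to 59.2, counting error only) and at 14.3 (9.74 to 20.3) and 10.7 (4.63 to 21.1) in the SPF libraries. Slc16a3 in the same cells reached 122 CPM in DSS colon and 120.3 CPM in the library labelled Nlrc4 deficient, against 64.7 and 37.5 in SPF colon, and fell short of the fold for SPF colon 1. Aldoc in dendritic cell-like cells was at 4.56 CPM (2.43 to 7.80) in DSS colon and at 16.0 and 31.7 in SPF colon. In resident macrophage-like cells, monocyte markers summed to 1813 CPM in DSS colon, 1489 CPM in the library labelled Nlrc4 deficient and 241 to 1245 CPM in the other 7 libraries, and their part in these levels was not tested.

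In the library labelled Nlrc4 deficient, 2 of 30 members lay more than a fold of 2 below DSS colon in monocyte-like cells (8.48% of all genes past that fold in either direction), namely Bnip3 (9.71 against 39.5 CPM) and Pfkfb3 (22.4 against 50.2 CPM). In resident macrophage-like cells, Hk1 was above (48.2 against 16.5 CPM) and Bnip3 below (19.3 against 46.9 CPM), 2 of 28 members where 13.3% of all genes passed. In dendritic cell-like cells, Aldoc (14.9 against 4.56 CPM) and Slc2a6 (42.8 against 18.6 CPM) were above, 2 of 29 with 3.40% of all genes. Each side is 1 library, so these are differences between libraries.

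After antibiotics, 9 of 29 members lay below both SPF colon libraries and 5 above both in monocyte-like cells (32.8% and 32.1% of all genes). The share of members below was thus near that of all genes in this class. In resident macrophage-like cells 13 lay below and 6 above of 28 (35.4% and 34.1%). The counts in dendritic cell-like cells were 11 and 5 of 29 (29.6% and 32.8%). Past a fold of 2 were 0 of 28 members in resident macrophage-like cells (3.81% of all genes), 0 of 29 in dendritic cell-like cells (0.365%) and 1 of 29 in monocyte-like cells (2.40%). That member, Ldhb, had 0 UMIs in 65 cells, with an upper 95% limit of 7.74 CPM, against 8.23 CPM (4.25 to 14.4) and 6.77 CPM (2.92 to 13.3) in SPF colon, intervals that overlap. Without SPF colon 1 the counts in monocyte-like, resident macrophage-like and dendritic cell-like cells were 0, 2 and 0, and without SPF colon 2 they were 2, 1 and 1. Against 1 SPF library the fold is easier to meet for every gene, and the share of all genes was not counted there.

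Between germ-free and SPF colon, no member passed in monocyte-like (0 of 21), resident macrophage-like (0 of 24) or dendritic cell-like cells (0 of 29), while 0.07%, 0.0% and 0.0% of all genes passed. At an unadjusted edgeR p under 0.05 stood 1, 3 and 2 members, against 5.06%, 3.33% and 5.10% of all genes. DESeq2 called 0 members in each, and 3, 3 and 30 of all genes. The monocyte-like comparison rests on germ-free colon 2 alone, because germ-free colon 1 held 16 such cells. In resident macrophage-like cells, Slc16a3 stood at 17.5 and 29.9 CPM in germ-free colon and at 64.7 and 37.5 in SPF colon. Its log2 fold change of -1.09 ± 0.38 was not called by the edgeR test.

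Between small intestine and SPF colon, again 0 of 21, 0 of 24 and 0 of 29 members passed in the same classes, while 0.0175%, 0.0% and 0.219% of all genes passed. At an unadjusted edgeR p under 0.05 stood 0, 6 and 4 members, against 4.99%, 8.61% and 10.4% of all genes. DESeq2 called 0 members in each, and 1, 51 and 189 of all genes. In resident macrophage-like cells, Eno1 was at 52.5 and 40.3 CPM in the small intestine and at 122 and 117 in SPF colon (log2 fold change -1.43 ± 0.36, edgeR adjusted p = 0.259). Slc16a3 was at 22.4 and 18.4 CPM in the small intestine (log2 fold change -1.43 ± 0.36, adjusted p = 0.286), and Gapdh at 480 and 357 CPM against 729 and 746 (log2 fold change -0.88 ± 0.31, adjusted p = 0.504). These 3 genes missed the threshold. The median log2 fold change of the tested members there was -0.48, against -0.01 over all genes, and dissociation genes summed to 22146 CPM in small intestine 2 and 5512 to 13188 in the other 8 libraries, which was not tested as a part of it. A test of whether the small intestine difference itself differed between resident macrophage-like and dendritic cell-like cells, added after the values were seen, called 0 of 29 members (0.417% of all genes), with 7 at an unadjusted p under 0.05 (11.3% of all genes) and the lowest adjusted p at 0.0878 for Gapdh.

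**Figure D5:**
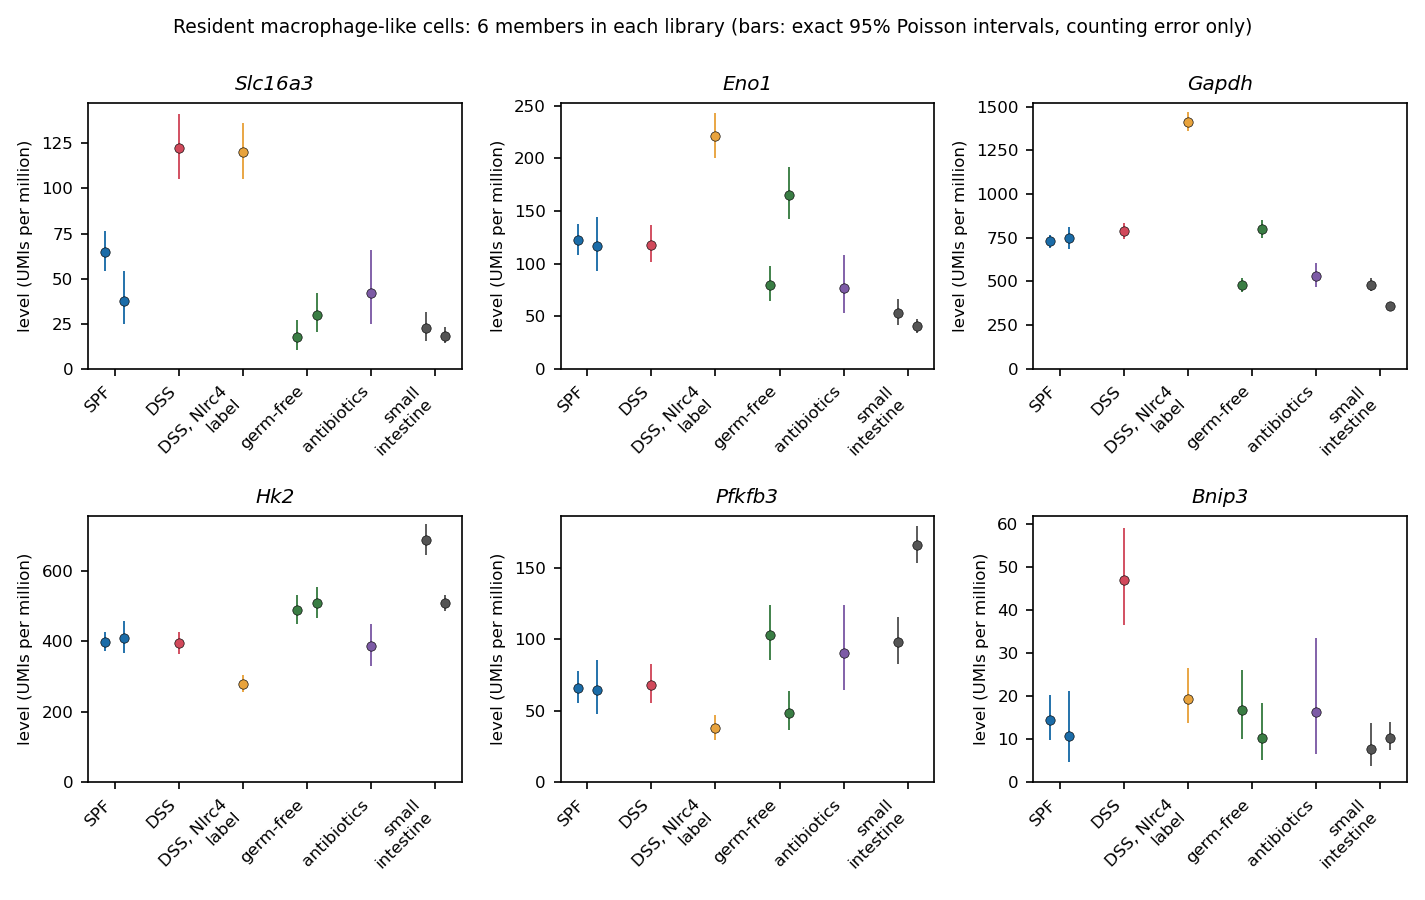
Levels of 6 members in resident macrophage-like cells of each library (CPM, linear scales that start at 0), with exact 95% Poisson intervals that cover counting error only. Slc16a3 is highest in the 2 DSS-treated libraries (122 and 120.3 CPM), Bnip3 in DSS colon alone (46.9 CPM), and Eno1 lowest in the small intestine (52.5 and 40.3 CPM).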

How the data were processed

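Per the labels and file headers, the authors made single-cell 3' libraries (v3 chemistry) of sorted lamina propria cells and processed them with Cell Ranger (3.0.2 in the file headers), with STAR 2.5.1b and mm10 named in the submitters' processing notes. The deposited matrices hold raw UMI counts per gene and cell barcode, 1 library per matrix, with no normalization. Counts of near-identical gene copies may be shared or lost in that step.

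Cells with at least 200 genes and at most 15% mitochondrial UMIs were kept (scanpy 1.11.5, Python 3.11.15, numpy 2.4.6, scipy 1.17.1). A cell was assigned to a class when the mean z-score of the naming markers of that class was at least 0.5, led the next class by at least 0.3 and rested on at least 2 detected markers. The 3 dendritic cell classes were summed for tests. Scrublet calls were not used to remove cells. Cells are not replicates, so the counts of a class were added up within each library that had at least 20 of its cells and tested with edgeR 4.0.16 (quasi-likelihood, TMM, filterByExpr, R 4.3.3) on all genes, with Benjamini-Hochberg adjustment and a threshold of 0.05. Class comparisons had the library as a block. Germ-free colon and small intestine were compared with SPF colon in 1 fit over the 6 replicated libraries. Groups with 1 library got no test: log2 ratios were taken after adding 5 CPM, over genes that reached 10 UMIs, and called past a fold of 2 from every reference library, with exact 95% Poisson intervals. Precision follows depth, and intervals cover counting error only.

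All 30 members may be named, and from other gene lists up to 3 called genes with the largest change per comparison. The members and lists were chosen with earlier results of these data known. The edgeR step was tested on simulated data with known fold changes. Alternatives were DESeq2 1.42.0, other size factors, no filter on low counts, a stricter cell filter, Leiden clusters (30 principal components, resolution 1.0, members held out) in place of gates, no library block or a replicate block, other pseudocounts and UMI minimums, and each library left out. Promoter windows came from RefSeq (GRCm38.p6). Gene positions are those of the GRCm38 annotation.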

Additional observations from a re-analysis of the deposited data

How the results depend on the processing

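Clusters in place of marker gates changed most counts: called members became 6 for inflammatory monocyte-like against monocyte-like cells, 18 for monocyte-like against resident macrophage-like cells and 14 for eosinophil-like against neutrophil-like cells. All genes called moved from 910 to 952, from 2692 to 2738 and from 1436 to 2484 in these comparisons. Without the library block, called members were 0 for inflammatory monocyte-like against monocyte-like cells and 8 for neutrophil-like against monocyte-like cells. All genes called fell there from 910 to 159 and from 3370 to 2349. With each library left out in turn, called members ranged from 2 to 4 for inflammatory monocyte-like, 10 to 12 for monocyte-like against resident macrophage-like, 12 to 15 for neutrophil-like, 18 to 21 for dendritic cell-like and 7 to 10 for eosinophil-like cells, and were 0 in every condition comparison. Without a filter on low counts, 1 member was called in germ-free dendritic cell-like cells, 2 in small intestine resident macrophage-like cells and 1 in small intestine dendritic cell-like cells. Of all genes, 137, 268 and 571 were called in these comparisons.

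Members past a fold of 2 between DSS and SPF colon ranged from 1 to 3 in monocyte-like, 2 to 5 in resident macrophage-like and 1 to 3 in dendritic cell-like cells with 1 SPF library left out. Clusters gave 2, 0 and 0, and a pseudocount of 1 CPM gave 2 in resident macrophage-like cells. After antibiotics the ranges were 0 to 2, 1 to 2 and 0 to 1. A pseudocount of 1 CPM gave 2, 2 and 1, and in monocyte-like cells both a minimum of 30 UMIs and clusters gave 0. For the library labelled Nlrc4 deficient, a pseudocount of 1 CPM gave 6 in monocyte-like and 5 in resident macrophage-like cells, and clusters gave 5 in resident macrophage-like and 0 in dendritic cell-like cells. The share of all genes past the fold was not counted under these alternatives. Leaving out 1 SPF library makes the fold easier to meet for every gene. With clusters, the direction turned for Bnip3 (0.64) and Mxi1 (0.0015) in monocyte-like against resident macrophage-like cells. It also turned for Gapdh (-0.71) and Pgam1 (-0.63) in eosinophil-like against neutrophil-like cells. None of these 4 was a call with gates except Mxi1. With clusters, Bnip3, Gapdh and Pgam1 were calls in the turned direction (edgeR adjusted p = 0.0481, 0.00106 and 0.0176), and Mxi1 was not. The cause of these changes was not tested.

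Nothing in the labels pairs libraries of the same number, and with 2 numbers a group the data cannot settle it: deviations of same-numbered libraries correlated at 0.158 to 0.359 between SPF and germ-free colon and at -0.075 to 0.091 otherwise, and a replicate block called 0 members in every condition comparison. The alternative without germ-free colon 2 could not be run for monocyte-like cells. Conditions with 2 libraries a group, or 1, limit what could be detected.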

Other observations

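Genes whose levels followed a member most closely were sought over 119 library and class sums of 15 classes, which share libraries, depth and class structure, so that the correlations are descriptions. For Hif1a, the closest were Capza2 (Pearson r = 0.774), BC005537 (0.761), Ube2d3 (0.740), Nab1 (0.728) and Fyb (0.723). Slc2a1 was followed by Tmbim6 (r = 0.756), Zc3h12a (0.741), Tpd52 (0.735), Atp6v1e1 (0.728) and Plaur (0.725), and Ldha by Pdcd6 (0.749), Slk (0.651), Ccdc12 (0.645), Coro1c (0.628) and Bag1 (0.627). No member of the module was among these 15 genes.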
